A study of Homo sapiens with 4 samples.

Results

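A set of 9 genes around the feedback between p53, MDM2 and the cyclin G proteins was followed in Hs578T cells after knockdown of talin-1. The 9 genes are MDM2, MDM4, CCNG1, CCNG2, PPM1D, GADD45A, SESN1, ZMAT3 and TP53INP1, and they were chosen by the measured fold change in these libraries: the list was drawn up because MDM2 and CCNG1 are lower after knockdown. All 9 were among the 16137 genes tested, out of 60721 in the count table. Their differences between groups are therefore descriptions, given with no p-value, and where the threshold used for all genes is applied to them the outcome supports nothing about them. Beside these stand their levels, library spread and sequence features.

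Hs578T is an established line from a human breast carcinoma. Both groups were transfected with GFP and with RNA at 1.6 µM. The RNA was a scrambled, non-targeting control in the group SCR and an siRNA against TLN1 in the group siTLN1. Polyadenylated RNA was collected after 48 h, with 2 biological replicates per group. The sequence of the siRNA is not given in the sources used here. The sources name 1 siRNA condition and 1 cell line, which limits what the comparison can represent.

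The p53 protein is a transcription factor that is held at a low level by MDM2, a ubiquitin ligase whose own gene p53 activates, so that the pair forms a negative feedback loop. Several other p53 targets act back on the loop. PPM1D (the phosphatase Wip1) removes activating phosphates from p53 and its kinases, and cyclin G1 recruits the phosphatase PP2A to MDM2. MDM4, a relative of MDM2, binds p53 and blocks its activity.

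The total counts ran from 31854322 to 46353297 per library, and the target TLN1 was reduced to 5.55% of its SCR mean (log2 fold change −4.17 ± 0.11 (SE), edgeR adjusted p 3.89e-13). The quasi-likelihood test of edgeR, adjusted by Benjamini-Hochberg, called 980 genes (6.07% of those tested) at a threshold of 0.05, 609 (3.77%) of them lower and 371 (2.30%) higher in siTLN1. The labels call the cells epithelial. Of 7 epithelial markers, KRT8, KRT18 and GATA3 averaged at least 1 CPM (read counts scaled to library size, with TMM factors). CDH1 was at 0.409 and 0.517 CPM in SCR against 0.797 and 0.851 CPM in siTLN1, and EPCAM at 0 to 0.144 CPM. GATA3 was at 9.75 and 10.5 CPM in SCR against 11.6 and 13.8 CPM in siTLN1. CDH1 and GATA3 were thus higher without overlap, as were KRT19 and ESR1 at no more than 6 counts per library. KRT8 was lower without overlap. EPCAM overlapped, and so did KRT18, which made up most of the epithelial sum below. Of 8 mesenchymal and basal markers 7 reached 1 CPM, VIM among them at 3811 to 3968 CPM, while KRT5 did not. The summed epithelial markers were 131 to 163 CPM in SCR and 143 to 156 CPM in siTLN1, and the summed mesenchymal and basal markers 29942 to 32726 CPM in SCR and 32876 to 38251 CPM in siTLN1. FN1 made up most of the latter sum and was higher in siTLN1 (26298 and 23553 CPM against 32369 and 26960 CPM). KRT14 (109 and 127 CPM against 66.2 and 68.1 CPM), CDH2 (569 and 535 CPM against 303 and 293 CPM), CD44 (1627 and 1521 CPM against 1341 and 1291 CPM) and ZEB1 (122 and 112 CPM against 111.7 and 109 CPM) were lower without overlap, VIM, SNAI2 and KRT5 overlapped, and the part of such differences in the values below was not tested. Of 7 markers of immune, endothelial and muscle-like cells, ACTA2 and PECAM1 reached 1 CPM and CD3E was at 0 in every library. The muscle-like marker ACTA2 was at 427 and 459 CPM in SCR against 481 and 498 CPM in siTLN1, higher without overlap. PECAM1 was at 4.47 and 3.76 CPM against 2.86 and 3.30 CPM, lower without overlap. In bulk RNA, fewer cells of a type and less RNA per cell cannot be told apart. The count columns carry a number that recurs in 1 column of each group, and the libraries are called a and b by it.

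Promoters of MDM2 and CCNG1, the pair that is lower in siTLN1, and of SESN1 are shown, 1 for each gene. They hold near matches to the consensus of the p53 response element, or an exact match to a unit of it. RefSeq (GRCh38.p14) gave 14 promoters of 300 bases for 7 of the 9 genes, from 250 bases before to 50 after each transcript start. The p53 response element is built of a pair of 10-base units. The capitals mark an exact match to the unit's consensus in SESN1, and in MDM2 and CCNG1 a pair of units with 2 mismatches in all and up to 13 bases between them. Only 1 best pair of a window is marked, and pairs with more mismatches were not sought, so the marks do not list every possible site. The matches were searched by the consensus, which reads the same on both strands.
MDM2 internal promoter, chr12:68808767-68809066, plus strand: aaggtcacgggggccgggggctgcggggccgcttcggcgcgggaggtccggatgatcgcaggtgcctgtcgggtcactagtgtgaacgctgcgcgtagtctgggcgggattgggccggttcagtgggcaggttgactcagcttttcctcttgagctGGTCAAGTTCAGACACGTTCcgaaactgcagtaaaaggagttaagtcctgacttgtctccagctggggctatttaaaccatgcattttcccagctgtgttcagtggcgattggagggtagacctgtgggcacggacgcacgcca
CCNG1 promoter, chr5:163437321-163437620, plus strand: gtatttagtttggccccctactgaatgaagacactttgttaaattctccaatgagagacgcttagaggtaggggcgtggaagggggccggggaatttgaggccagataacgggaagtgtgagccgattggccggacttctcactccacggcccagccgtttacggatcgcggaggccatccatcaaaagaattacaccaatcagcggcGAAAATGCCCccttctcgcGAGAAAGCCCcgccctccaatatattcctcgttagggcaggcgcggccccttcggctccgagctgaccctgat
SESN1 promoter, chr6:109008939-109009238, minus strand: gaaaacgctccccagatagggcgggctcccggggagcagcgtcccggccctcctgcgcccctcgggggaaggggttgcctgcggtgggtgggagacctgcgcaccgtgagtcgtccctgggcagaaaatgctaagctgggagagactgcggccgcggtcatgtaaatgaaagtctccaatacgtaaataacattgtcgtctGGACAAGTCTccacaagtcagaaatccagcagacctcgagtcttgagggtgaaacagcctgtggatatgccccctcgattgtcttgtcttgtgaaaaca
Among all 35116 promoters of this length, 6.63% hold an exact unit and 7.82% hold a pair with up to 2 mismatches. The pair in the MDM2 promoter begins 94 bases before the transcript start and has a spacer of 0 bases, and that of CCNG1 begins 42 bases before the start and has a spacer of 9 bases. Mismatches were counted alike at every base, and each unit of CCNG1 has an A in place of the invariant C of the consensus. The other SESN1 promoter with a match holds a pair with 2 mismatches and a spacer of 11 bases, and 1 further overlapping window each of MDM2 and CCNG1 holds the pair already shown. The MDM2 windows chr12:68807922-68808221 and chr12:68807927-68808226 and the SESN1 window chr6:109009503-109009802 held neither kind of match. No promoter window of CCNG2, MDM4, PPM1D or ZMAT3 held either kind of match, which says only that these letters are not in the windows.

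A 7-base word was also looked up, because its presence went with lower fold changes across the genes of these libraries. The word is GACAACA, in capitals below within its site in the GENCODE 29 transcript with the longest coding sequence. Of the 9 genes, MDM2 and MDM4 hold it in the 3′ UTR, CCNG1 holds it in the coding sequence alone, and the chosen transcripts of the other 6 lack it.
MDM2, 3′ UTR, base 2800 of the UTR: taatggtactaGACAACAtgtaattaatg
MDM4, 3′ UTR, base 1895 of the UTR: acatattttagGACAACAcatatggaaat
CCNG1, coding sequence, base 15 from the start codon: atagaggtactGACAACAactgactctca
The word in MDM2 lies in 1 of 19 coding transcripts, that with a 3′ UTR of 10837 bases. It lies in 8 of 12 coding transcripts of MDM4 and in 5 of 7 of CCNG1. The counts are per gene and do not tell which transcripts were present.

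MDM2 (ENSG00000135679.25; GRCh38, chromosome 12, 68808177 to 68850686, plus strand), the ubiquitin ligase of p53, had the log2 fold change of largest size among the 9 in the fit of all 4 libraries. Its abundance was 40.9 and 34.9 CPM in SCR libraries a and b, against 21.0 and 21.2 CPM in siTLN1 libraries a and b. Both siTLN1 libraries lay below both SCR libraries, and the siTLN1 mean was 55.7% of the SCR mean. The means were 37.9 ± 4.25 CPM (SD, n = 2) and 21.1 ± 0.196 CPM (SD, n = 2). The fitted log2 fold change was −0.84 ± 0.11 (SE). The 2 SCR libraries differed more from each other than the 2 siTLN1 libraries did, and the log2 fold change was −0.72 without SCR library a and −0.95 without SCR library b. The libraries came from a stranded kit but were counted without a strand option, and 6.83% of the exon bases of MDM2 also lie in exons of opposite-strand genes. Of these genes, ENSG00000257181 (5.84% of the bases) had 0 counts in every library and the carboxypeptidase M gene (0.989%) had 86 to 154 counts. A further 3.26% lie in exons of other genes on the same strand. Reads in shared bases may go uncounted, so the MDM2 level is uncertain to that extent.

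MDM4 (ENSG00000198625.13; chromosome 1, 204516379 to 204558120, plus strand), the relative of MDM2 that binds and inhibits p53, had 12.7 and 13.4 CPM in SCR against 14.1 and 13.1 CPM in siTLN1. The ranges of the groups overlapped. Its log2 fold change of 0.055 ± 0.12 (SE) was smaller than its error. Both MDM4 and MDM2 hold the word in an annotated 3′ UTR, and the difference between their fold changes was not tested.

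CCNG1 (ENSG00000113328.19; chromosome 5, 163437569 to 163446151, plus strand) encodes cyclin G1. It had 96.7 and 91.4 CPM in SCR against 59.8 and 57.3 CPM in siTLN1. The groups were separated by more than the spread of either, and the siTLN1 mean was 62.3% of the SCR mean. The log2 fold change was −0.68 ± 0.094 (SE), and it lay between −0.72 and −0.64 in the fits that left out 1 library. No exon base of CCNG1 is shared with another gene.

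CCNG2 (ENSG00000138764.15; chromosome 4, 77157207 to 77433388, plus strand) encodes cyclin G2, a relative of cyclin G1 known to be raised in arrested cells through FOXO factors. It had 30.1 and 28.9 CPM in SCR against 25.3 and 24.96 CPM in siTLN1. Both siTLN1 libraries again lay below both SCR libraries, with a siTLN1 mean at 85.1% of the SCR mean. The log2 fold change was −0.23 ± 0.10 (SE), and the call rule at an adjusted p of 0.05 did not take it. The sign was the same for both cyclin G genes and the size was smaller for CCNG2. The difference in size was not tested.

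PPM1D (ENSG00000170836.12; chromosome 17, 60600183 to 60666280, plus strand), the phosphatase that dampens p53 signalling, had 11.7 and 12.8 CPM in SCR against 14.9 and 14.1 CPM in siTLN1. The siTLN1 libraries were the higher ones and the groups did not overlap. Its log2 fold change was 0.24 ± 0.12 (SE). TP53INP1 (ENSG00000164938.14; chromosome 8, 94925972 to 94949378, minus strand) encodes a stress-induced nuclear protein that promotes p53 activity. It had 15.4 and 12.1 CPM in SCR against 20.6 and 17.2 CPM in siTLN1. Its groups did not overlap either, and its log2 fold change of 0.46 ± 0.13 (SE) was the highest of the 9. It was 0.30 without SCR library b and 0.64 without SCR library a.

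The remaining members had groups that overlapped. GADD45A (ENSG00000116717.13; chromosome 1, 67685201 to 67688334, plus strand) encodes a growth arrest and DNA damage protein that binds stress kinases and cell-cycle regulators. It had 153 and 181 CPM in SCR against 121 and 156 CPM in siTLN1. The a libraries were the lower ones in both groups. The log2 fold change of −0.27 ± 0.12 (SE) ran from −0.46 without siTLN1 library b to −0.10 without siTLN1 library a. SESN1 (ENSG00000080546.13; chromosome 6, 108986437 to 109094819, minus strand) encodes sestrin-1, which restrains mTORC1 signalling. It had 5.79 and 3.62 CPM in SCR against 6.84 and 5.58 CPM in siTLN1, the lowest level of the 9. The log2 fold change of 0.40 ± 0.20 (SE) moved to 0.09 without SCR library b and 0.77 without SCR library a. It was 0.25 without siTLN1 library a and 0.55 without siTLN1 library b, so its size depends on every library. Opposite-strand exons share 7.09% of the exon bases of SESN1, with a gene that had 0 counts in every library. ZMAT3 (ENSG00000172667.11; chromosome 3, 178960121 to 179072215, minus strand) encodes an RNA-binding zinc finger protein. It had 55.1 and 46.1 CPM in SCR against 54.9 and 50.9 CPM in siTLN1, with a log2 fold change of 0.065 ± 0.11 (SE). Its sign turned to −0.06 without SCR library b.

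**Figure D1:**
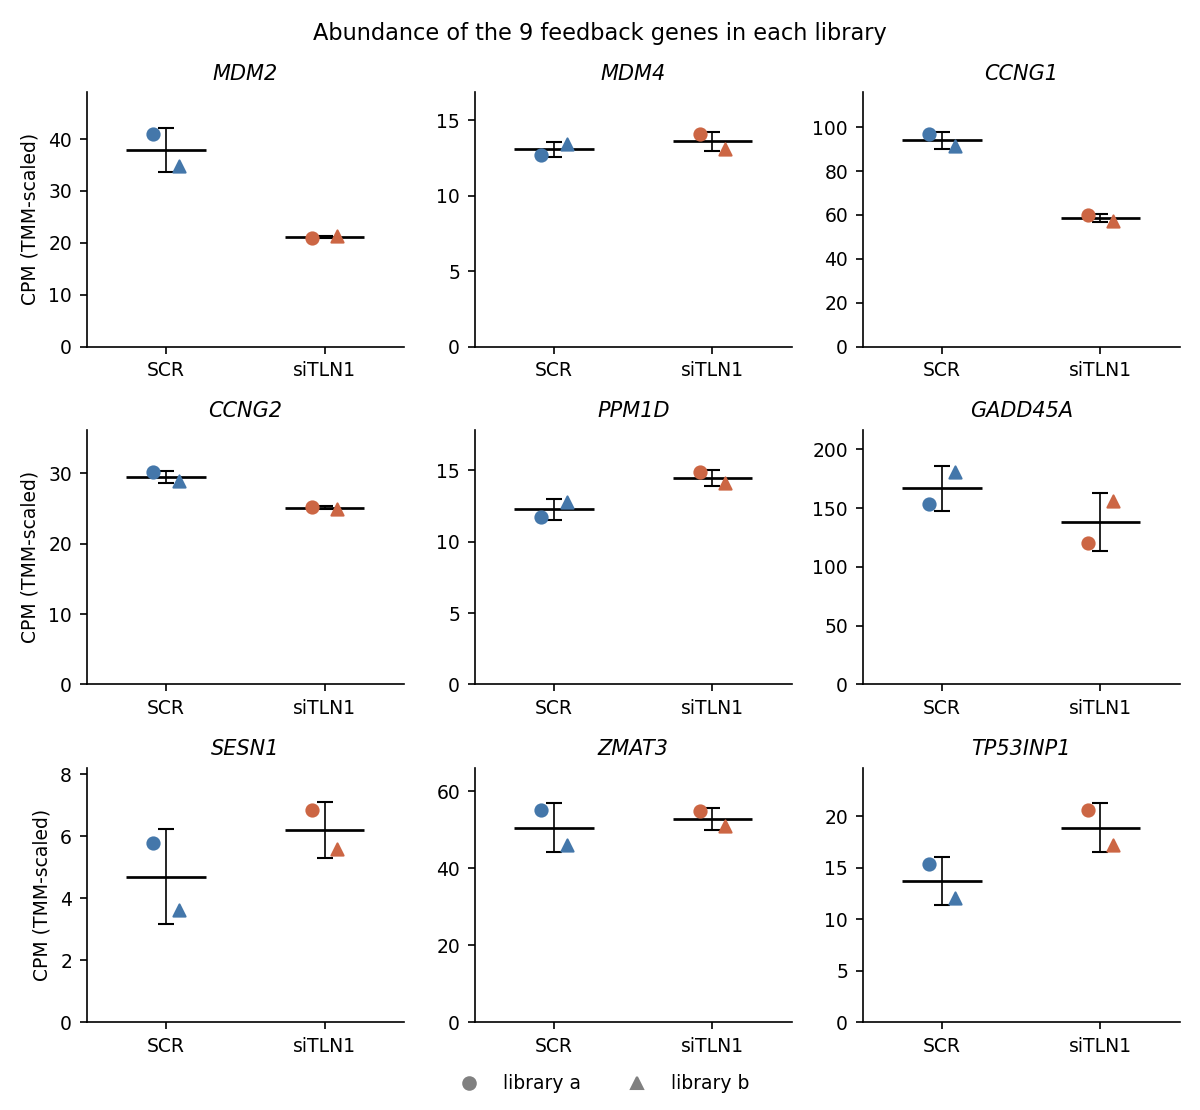
Abundance of each of the 9 genes in CPM (vertical axes, from 0, TMM-scaled) in the 2 SCR libraries (blue) and the 2 siTLN1 libraries (orange); circles are library a, triangles library b, the bar is the mean and the whiskers are 1 SD (n = 2). MDM2 and CCNG1 drop from means of 37.9 and 94.0 CPM to 21.1 and 58.6 CPM, while MDM4 and ZMAT3 overlap between the groups.

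Read together, 4 of the 9 log2 fold changes were below 0 and 5 were above, with a median of 0.055, against a median of 0.0033 over all genes tested. The call rule took 2 of the 9, MDM2 and CCNG1, both lower, beside 3.77% of all genes called lower and 6.07% called in either direction. The list was drawn up around those genes, so nothing is read from that count. Without SCR library a the rule took 5 of the 9, adding GADD45A, SESN1 and TP53INP1, while it called 1116 of all 16137 genes in that fit. Without siTLN1 library b it took 4, adding GADD45A and TP53INP1, while it called 846 of all genes. Libraries of the groups did not overlap for 5 of the 9 (MDM2, CCNG1 and CCNG2 lower, PPM1D and TP53INP1 higher). Over all genes tested, 24.6% were lower without overlap and 23.9% higher, 48.4% in all.

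Set against each other by the recurring number, siTLN1 library a over SCR library a and siTLN1 library b over SCR library b gave log2 ratios of −0.96 and −0.72 for MDM2. They were −0.69 and −0.67 for CCNG1, −0.25 and −0.21 for CCNG2, and −0.34 and −0.21 for GADD45A. They were 0.34 and 0.14 for PPM1D, 0.24 and 0.62 for SESN1, and 0.42 and 0.51 for TP53INP1. For these 7 genes the sign was the same in both ratios. It was not for MDM4 (0.15 and −0.033) or ZMAT3 (−0.0044 and 0.14). No label states that the number marks a shared preparation.

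**Figure D2:**
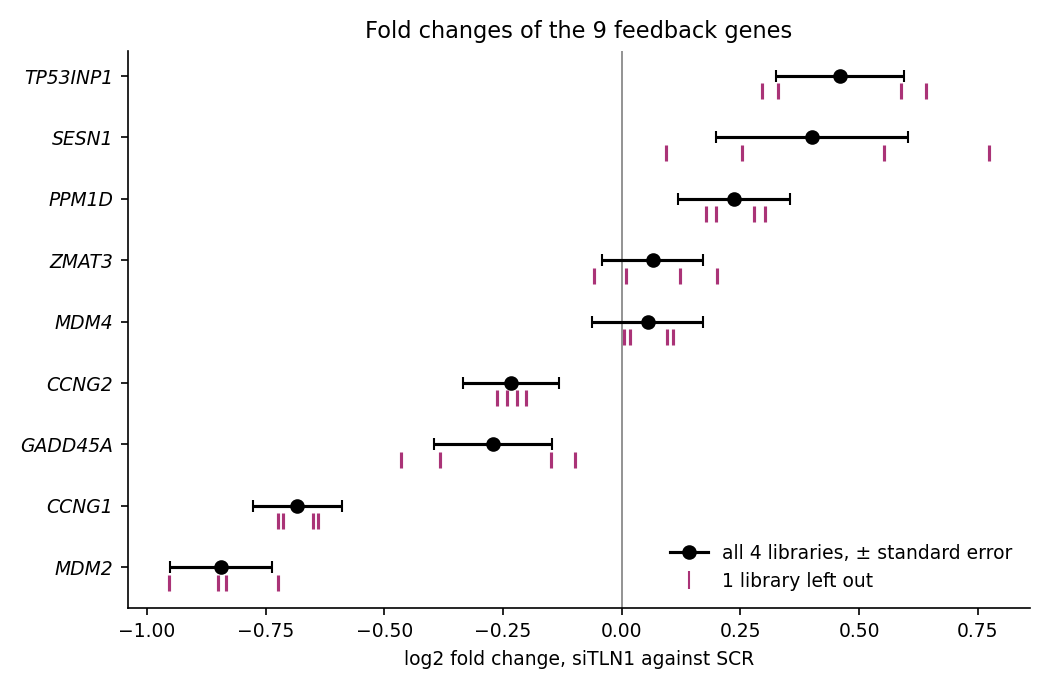
Log2 fold change of each gene, siTLN1 against SCR (horizontal axis); black points and whiskers are the fit of all 4 libraries with its standard error, and purple ticks are the fits with 1 library left out. MDM2 stays between −0.95 and −0.72 and CCNG1 between −0.72 and −0.64, whereas SESN1 spreads from 0.09 to 0.77 and ZMAT3 crosses 0.

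Levels were compared between genes per length of exon, as CPM per kb in the SCR libraries. GADD45A was the most abundant at 86.7 ± 9.99 CPM per kb (SD, n = 2), followed by CCNG1 at 30.4 ± 1.23 CPM per kb (SD, n = 2). ZMAT3 followed at 4.48 ± 0.563 CPM per kb (SD, n = 2) and CCNG2 at 3.98 ± 0.117 CPM per kb (SD, n = 2). Cyclin G1 transcripts thus stood well above cyclin G2 transcripts in the control cells. MDM2 had 2.82 ± 0.316 CPM per kb (SD, n = 2), TP53INP1 had 2.44 ± 0.409 (SD, n = 2) and PPM1D had 2.43 ± 0.150 (SD, n = 2). MDM4 had 1.19 ± 0.0468 CPM per kb (SD, n = 2) and SESN1 was lowest at 0.918 ± 0.300 (SD, n = 2). Of neighbours in this order, MDM2 and TP53INP1, and TP53INP1 and PPM1D, overlapped between SCR libraries. ZMAT3 and CCNG2, and MDM4 and SESN1, were separated by less than 1 SD of the more variable gene. In siTLN1, MDM2 was at 1.56 and 1.58 CPM per kb, below PPM1D (2.95 and 2.79) and TP53INP1 (3.65 and 3.05), whose SCR means lay below that of MDM2. The exon lengths join all annotated transcripts, and long annotated UTRs lower the values of MDM2, MDM4 and ZMAT3.

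**Figure D3:**
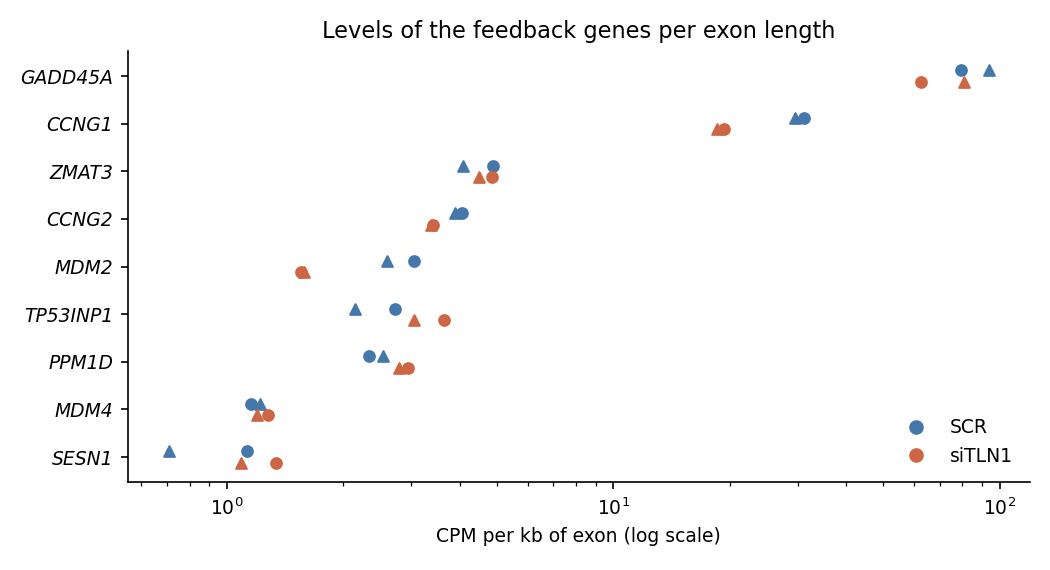
Level of each gene in CPM per kb of annotated exon (horizontal axis, log scale) in SCR (blue) and siTLN1 (orange) libraries; circles are library a and triangles library b. GADD45A and CCNG1 stand apart at the top, and MDM2 moves from above to below PPM1D and TP53INP1 between the groups.

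The question of whether other genes of the pathway differed was addressed with 6 lists of 74 genes, none of them a member. Of these, 69 were tested, and 5 (7.25%) passed an adjusted p of 0.05 in edgeR's quasi-likelihood test, 4 lower and 1 higher, beside 6.07% of all genes tested. Their median log2 fold change was 0.013, beside 0.0033 over all genes.

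In the list of upstream genes of the pathway, 0 of 17 tested genes passed with edgeR, and 0 with DESeq2 or limma-voom (1 had an unadjusted edgeR p under 0.05), with a median log2 fold change of 0.036. Scaling by total counts alone gave 1 call. A limma-trend fit with the labelled replicate number as a block gave 3, beside 3645 among all genes. The most abundant genes of the list were PRKDC, the catalytic subunit of the DNA-dependent protein kinase, and RPL5, a ribosomal protein that binds MDM2. PRKDC had a log2 fold change of 0.0045 ± 0.13 (SE), and its sign turned under limma. RPL5 had 0.10 ± 0.10 (SE). Opposite-strand exons share 7.4% of the exon bases of RPL5, 9.38% of PPP2R1A, 4.79% of CDKN1A, 3.12% of POLH, 2.34% of PLK3 and 1.66% of PPP2CA. Exons of other genes on the same strand share 9.33% of the bases of PPP2CA and 2.58% of those of RPL5, and these levels are uncertain in the way described for MDM2. Among the partners of the cyclin G proteins, which are GAK and subunits of PP2A, 0 of 10 passed with edgeR, and 0 with DESeq2 or limma-voom (2 had an unadjusted edgeR p under 0.05), and the median was −0.048. The limma-trend fit with the block called 3 of these partners. The PP2A scaffold PPP2R1A had a log2 fold change of −0.076 ± 0.097 (SE), and the PP2A catalytic subunit PPP2CA had 0.17 ± 0.093 (SE).

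Among 9 tested relatives of the members, 2 were called lower (CCNI and TP53INP2) and 0 higher, beside 3.77% and 2.30% of all genes tested. Their log2 fold changes were above 0 for 3 and below 0 for 6, with a median of −0.032. CCNI encodes cyclin I, which is related to the cyclin G proteins. It had 214 and 202 CPM in SCR against 149 and 159 CPM in siTLN1. The groups did not overlap, and the log2 fold change was −0.44 ± 0.093 (SE) (adjusted p 0.00914 by edgeR's quasi-likelihood test). TP53INP2, the relative of TP53INP1 that acts in autophagy, had 60.3 and 57.1 CPM in SCR against 46.0 and 45.1 CPM in siTLN1. Its log2 fold change was −0.37 ± 0.095 (SE) (edgeR adjusted p 0.0291), opposite in sign to that of TP53INP1. PPM1G, a phosphatase of the PPM1D family, had 0.012 ± 0.090 (SE). The call of CCNI was lost without siTLN1 library a (edgeR adjusted p 0.138), and that of TP53INP2 without SCR library a (0.0983), siTLN1 library a (0.199) or siTLN1 library b (0.152).

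Of p53 targets in cell-cycle arrest, PLK3 fell and 8 of 9 did not pass, with a median of 0.12. PLK3, a stress-responsive polo-like kinase, had 11.5 and 13.2 CPM in SCR against 8.60 and 9.26 CPM in siTLN1. Its log2 fold change was −0.46 ± 0.13 (SE) (edgeR adjusted p 0.0409). PLK2, a related kinase, had a log2 fold change of 0.27 ± 0.091 (SE) (edgeR adjusted p 0.0922), and SFN, which encodes 14-3-3 sigma, had −0.13 ± 0.10 (SE), which was −0.23 without SCR library a and −0.022 without SCR library b. CDKN1A, the CDK inhibitor p21 and the best-known arrest target of p53, was singled out after its values were seen. It had 46.1 and 47.0 CPM in SCR against 41.1 and 46.4 CPM in siTLN1, with a log2 fold change of −0.090 ± 0.10 (SE) (edgeR adjusted p 0.692). The call of PLK3 was lost without SCR library b (0.240), siTLN1 library a (0.294) or siTLN1 library b (0.0805), given as edgeR adjusted p, and with DESeq2 (adjusted p 0.0794).

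Of p53 targets in cell death, PMAIP1 rose and 12 of 13 did not pass, with a median of 0.048. PMAIP1 encodes NOXA, a BH3-only protein of mitochondrial apoptosis. It had 21.7 and 22.8 CPM in SCR against 31.4 and 30.4 CPM in siTLN1, and the groups were well separated. The log2 fold change was 0.47 ± 0.10 (SE) (edgeR adjusted p 0.0103). PERP, a desmosomal membrane protein linked to cell death, had 0.22 ± 0.091 (SE), and the death receptor gene TNFRSF10B had −0.15 ± 0.099 (SE), which was −0.048 without siTLN1 library a and −0.26 without siTLN1 library b. Of 11 tested targets in DNA repair and metabolism, CMBL fell and 10 did not pass, with a median of −0.060. CMBL, a cytosolic hydrolase gene, had 29.8 and 29.9 CPM in SCR against 21.8 and 23.2 CPM in siTLN1. Its log2 fold change was −0.41 ± 0.10 (SE) (edgeR adjusted p 0.0241). The polymerase gene POLH had 0.067 ± 0.095 (SE), and the ribonucleotide reductase gene RRM2B had −0.060 ± 0.12 (SE). Without siTLN1 library a the calls of PMAIP1 (edgeR adjusted p 0.121) and CMBL (0.257) were lost, and that of CMBL also without siTLN1 library b (0.0664).

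**Figure D4:**
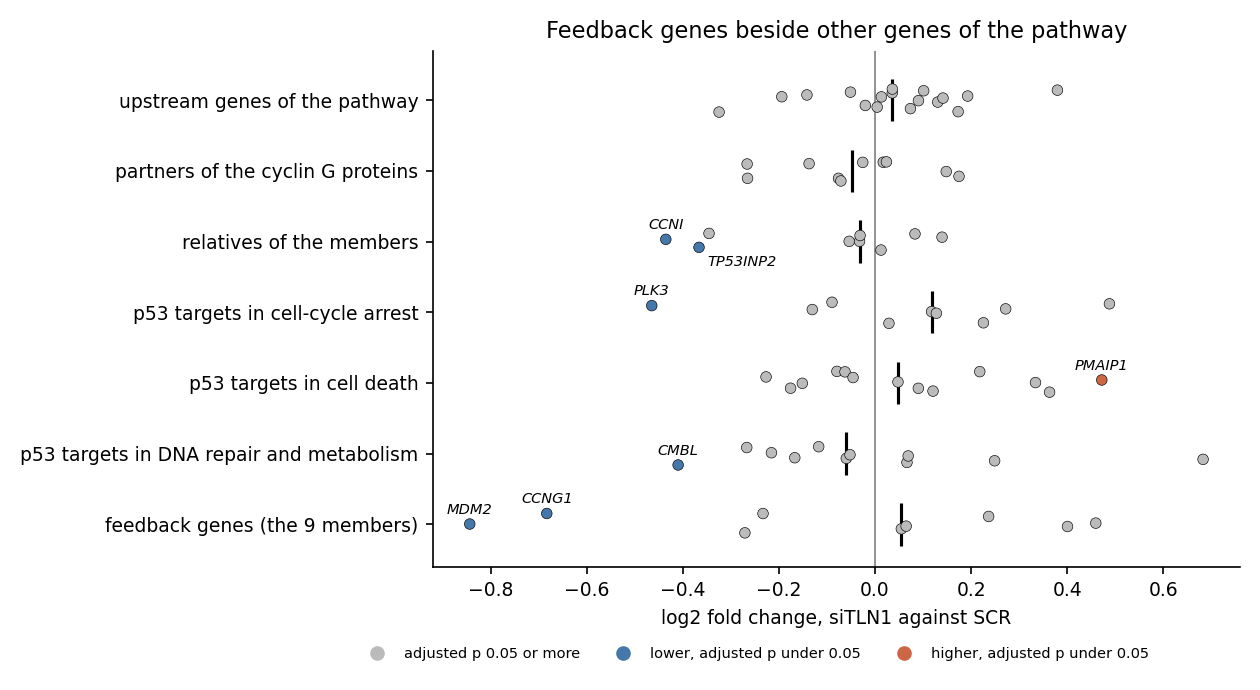
Log2 fold change, siTLN1 against SCR (horizontal axis), of each tested gene in the 6 lists and of the 9 feedback genes; black bars are medians, blue and orange points have an adjusted p under 0.05 (lower and higher) and grey points do not, with vertical jitter for legibility. The 5 list genes past the threshold lie between −0.46 and 0.47, inside the range from MDM2 at −0.84 to TP53INP1 at 0.46 or just beyond its upper end.

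The values of the members were then set beside the presence of the word GACAACA. Over 9494 protein-coding genes that averaged at least 5 CPM and had a 3′ UTR of at least 100 bases, 757 (7.97%) hold it in the 3′ UTR, and their median log2 fold change was −0.097, with 19.9% called lower and 1.85% called higher. It was −0.025 in the 1395 genes with the word in the coding sequence alone (7.17% called lower) and 0.015 in the 7342 genes with neither (3.38% called lower). MDM2 and CCNG1, the members called lower, both carry the word, and so does MDM4, whose log2 fold change was 0.055. The 3′ UTRs searched were long in MDM2 (10837 bases) and MDM4 (8438 bases), and also in ZMAT3 (7794 bases), which lacks the word. A longer sequence holds a given word more often, and the classes were not matched for length. Of the 6 members whose chosen transcripts lack it, 2 had a log2 fold change below 0 (CCNG2 and GADD45A) and 0 were called. Of the 69 tested list genes, 7 hold the word in the 3′ UTR, with a median log2 fold change of −0.0457, 4 below 0 and 1 called lower. The 11 with the word in the coding sequence alone had a median of 0.0125, with 2 called lower. The 51 with the word in neither had a median of 0.0132, with 1 called lower and 1 higher. Of the 5 list genes past the threshold, CMBL carries the word in the 3′ UTR and CCNI and PLK3 carry it in the coding sequence. The chosen transcripts of TP53INP2 and PMAIP1 lack it. The word was noticed on these same libraries, so its classes are a description, and its part in the lower values of MDM2 and CCNG1 was not tested.
CCNI, coding sequence: acttctccaagGACAACAgcaagccagaa
PLK3, coding sequence: ttgaggacgctGACAACAtctacattttc
These sites share the 7 bases in capitals with those of MDM2, MDM4 and CCNG1 above.

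**Figure D5:**
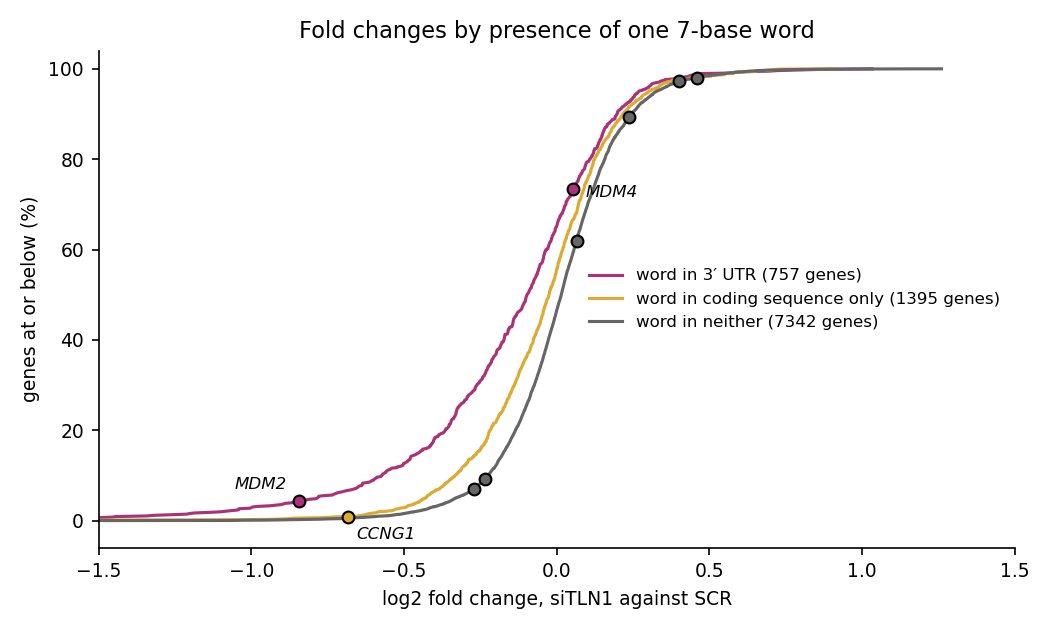
Cumulative share of genes (vertical axis, %) at or below each log2 fold change, siTLN1 against SCR (horizontal axis), for genes with the 7-base word in the 3′ UTR, in the coding sequence alone, or in neither; filled points are the feedback genes on the curve of their class. The curve of the 757 genes with the word in the 3′ UTR lies left of the others at negative values, and MDM2 lies far out on it while MDM4 lies above 0.

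Genes with the most similar profiles were found by Euclidean distance between log2 CPM values centred on each gene's mean, over the 4 libraries and 10475 other genes that averaged at least 5 CPM. For MDM2 they were MEIS2 (distance 0.038), GRIK2 (0.041) and GMFB (0.044). MEIS2 had 19.1 and 16.7 CPM in SCR against 9.81 and 9.85 CPM in siTLN1. For CCNG1 they were ST3GAL5 (0.030), FAM168A (0.048) and PDE12 (0.071). ST3GAL5 had 20.3 and 19.7 CPM in SCR against 12.7 and 12.3 CPM in siTLN1. CCNG1 ranked 35 among the genes nearest to MDM2, and MDM2 ranked 109 among those nearest to CCNG1, at a distance of 0.20. The chosen transcripts of FAM168A and PDE12 hold the word GACAACA in the 3′ UTR, that of GRIK2 in the 3′ UTR and the coding sequence, and that of MEIS2 in the coding sequence alone. That of GMFB has no annotated 3′ UTR, but 3 of its 5 coding transcripts hold the word, and 0 of 15 of ST3GAL5 do. These neighbours were all called lower. Of the 499 genes called lower among the 9494 above, 151 hold the word in the 3′ UTR and 100 in the coding sequence alone. Since the word was noticed through lower values, its presence in the neighbours supports nothing. MEIS2, GRIK2 and GMFB had log2 fold changes of −0.86, −0.85 and −0.82, and ST3GAL5, FAM168A and PDE12 of −0.67, −0.65 and −0.72. With 4 libraries the difference between the groups makes up most of the profiles of MDM2 and CCNG1, which were picked on it. The likeness and the ranks are therefore descriptions and support nothing about the pair.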

How the data were processed

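RNA of 4 Hs578T libraries, 2 per group, was analysed from tables that the authors deposited. The raw counts per gene were made with featureCounts (Subread 2.0.0) in paired-read mode without a strand option on GENCODE 33, per the file headers, after alignment with STAR 2.7.9a to GRCh38, per the submitters' processing notes. Exon length is a further deposited column, in a unit other than counts. The deposited log2 CPM values, for which the submitters' processing notes name edgeR 3.34.1, equalled edgeR's TMM-scaled values within the SCR group when sorted (100%, to within 1e-05). Count columns name their group but not their replicate. Stated biological replicates were taken as separate samples.

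Genes passing filterByExpr (minimum count 10, minimum total count 15) were fitted with edgeR 4.0.16 in R 4.3.3 (TMM, estimateDisp, robust glmQLFit without the legacy option, glmQLFTest), with Benjamini-Hochberg adjustment over all 16137 genes and a threshold of 0.05. Each SE is the absolute log2 fold change divided by the square root of the quasi-likelihood F statistic. For the members it thus carries the result of that test in another form. Counts of the members ran from 126 to 7324 per library, and the lowest belong to SESN1, where counting error weighs most. The procedure was tested on simulated data. As alternatives, scaling used RLE or total counts alone, the filter was dropped or set to a mean of at least 10 counts, and the fit used DESeq2 1.42.0, limma-voom or limma-trend (limma 3.58.1) or a replicate block. Each library was also left out in turn. The fits without a library assume that the lone sample of a group varies like the others.

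Symbols came from a table of gene IDs, which matched 16085 of the tested genes. Words were searched in GENCODE 29 transcripts, a release other than that of the counts. Named genes are the 9 members, TLN1, list genes with an adjusted p under 0.05, the 2 most abundant tested genes of each list and the 3 nearest profiles of MDM2 and of CCNG1. The members, the lists and the word were chosen with earlier results of these data known. Of the list genes 1, and of the site sequences 1, are not reported here. No protein sequences were used here.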

Additional observations from a re-analysis of the deposited data

How the results depend on the processing

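With all 4 libraries, the 72 values of the members under 8 other settings moved by less than the spread between replicates. These settings use the same 4 libraries, and limma-trend gives equal fold changes with and without the block. They could thus move the values little, and nothing about the members is read from it. Of 36 values with 1 library left out, 3 moved by more than that spread (MDM2, −0.72, CCNG2, −0.20, and SESN1, 0.77, each without SCR library a). TLN1 kept its direction and call throughout.

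Calls among all genes (980) ran from 347 (without siTLN1 library a) to 1116 (without SCR library a) with 1 library left out, and those among the members (2) from 2 to 5. With 1 library left out, calls ran from 0 to 1 among upstream genes, 0 to 2 among relatives of the members, 0 to 1 among arrest targets, 0 to 2 among death targets and 0 to 1 among repair and metabolism targets. The 1 arrest call without SCR library b was not PLK3. Total counts alone gave 1253 calls among all genes, 3 among the members (TP53INP1 added), 1 among the upstream genes and 2 among death targets. Without the filter, calls were 1 among relatives, 0 among arrest targets and 0 among repair targets, and DESeq2 gave 0 among arrest targets. Without the filter the adjusted p was 0.0697 for TP53INP2, 0.0863 for PLK3 and 0.0592 for CMBL.

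The log2 CPM columns carry replicate numbers, but no label says that a number marks a shared preparation. Deviations of same-numbered samples correlated at 0.19 over all genes and 0.537 at 5 CPM or more. With the replicate number as a block, limma-trend called 3645 genes, 6 members (CCNG2, GADD45A, SESN1 and TP53INP1 added), 3 upstream genes, 3 cyclin G partners, 3 arrest, 4 death and 3 repair targets. Of the named list genes that edgeR did not call, PLK2 (limma-trend adjusted p 0.00029), PERP (0.00431) and PPP2CA (0.0315) passed in this fit.

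Log2 fold changes near 0 changed sign. PRKDC was −0.0013 with limma-voom and −0.0029 with limma-trend, with or without the block. With 1 library left out it ran from −0.20 to 0.19 (−0.12 without SCR library b), PPM1G from −0.015 to 0.043, PPP2R1A from −0.15 to 0.0078, and RRM2B from −0.21 to 0.11 (0.050 without siTLN1 library b). Without a change of sign, RPL5 ran from 0.035 to 0.17, POLH from 0.012 to 0.12 and PPP2CA from 0.11 to 0.24. The causes were not tested. With 2 libraries against 2, an exact permutation test of a single gene cannot go below 0.333.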

Other observations

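Of the 74 list genes, 5 did not pass the filter on low counts. TP73, the p53 relative, had 0 counts in 3 libraries and 1 in siTLN1 library b. SPATA18 and GLS2 had at most 1 count per library, EDA2R at most 3 and GADD45G from 2 to 5. A difference was not detectable for these genes at this depth.

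CCNI and CCNG2, which encode related cyclins, lie next to each other on chromosome 4 (CCNI from 77047155 to 77075989, minus strand, and CCNG2 from 77157207, plus strand). Their log2 fold changes were −0.44 and −0.23. The pair was singled out after its values were seen.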
